A study of Boehmeria nivea with 6 samples.

Results

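A set of 86 of the 20693 genes measured in ramie (Boehmeria nivea) stood higher in stem than in leaf and in root of both varieties sampled. The members were chosen by their own expression values: at least 1 FPKM in stem, and a stem value of FPKM + 1 at least 4 times that of leaf and at least 4 times that of root, in the wild tenacissima accession QYZM and also in the cultivar ZSZ1. FPKM are fragments counted on a gene, scaled by its length and the size of the library, and 1 was added so that ratios exist where a library is listed at 0. The excess in stem is therefore the choice itself, and it is described below without a test. Plants were 30 days old, and leaf, root and stem of each variety gave 1 library each, 6 in all, so that no tissue of a variety has a replicate. Nothing in the labels names a treatment, or says how many plants a library holds.

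Ramie is grown for its bast fibres, long phloem cells of the stem bark whose walls are thickened mainly with cellulose. A stem also holds xylem with lignified walls, the cambium that forms both vascular tissues, cortex and epidermis, and genes expressed most strongly in stems of flowering plants often belong to the building of these walls and tissues. The table names genes by identifier alone, and no annotation was used here, so which of the 86 genes take part in such processes is not stated. For the same reason the labelled organs could not be checked against marker genes of their cell types. In whole organs, fewer cells that express a gene and less of its RNA per cell cannot be told apart.

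The library totals ran from 306497 to 433435 summed FPKM, lowest in ZSZ1 leaf. Read counts were not known, so no counting interval is given. The steps between the lowest values put the 6 libraries at 0.91 to 1.14 times a common mean depth, if whole fragments were counted. Over the 14941 genes tested below, log2(FPKM + 1) of root and stem correlated at r = 0.868 in QYZM and at r = 0.751 in ZSZ1. This is a description across genes, and which library the difference came from cannot be told.

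The stem-enriched genes covered a wide range of levels. In QYZM stem they ran from 3.74 to 4742 FPKM with a median of 40.5 FPKM, and in ZSZ1 stem from 3.23 to 6513 FPKM with a median of 51.4 FPKM. The 13077 genes that reached 1 FPKM in both stems, a condition that every member meets, had medians of 12.5 and 11.7 FPKM there. At least 100 FPKM was reached by 21 members in QYZM stem and by 25 in ZSZ1 stem. Outside stem their medians were 2.22 FPKM in QYZM leaf, 1.25 FPKM in ZSZ1 leaf, 5.5 FPKM in the root of QYZM and 2.17 FPKM in that of ZSZ1. QYZM root thus had the highest median of the libraries outside stem.

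**Figure D1:**
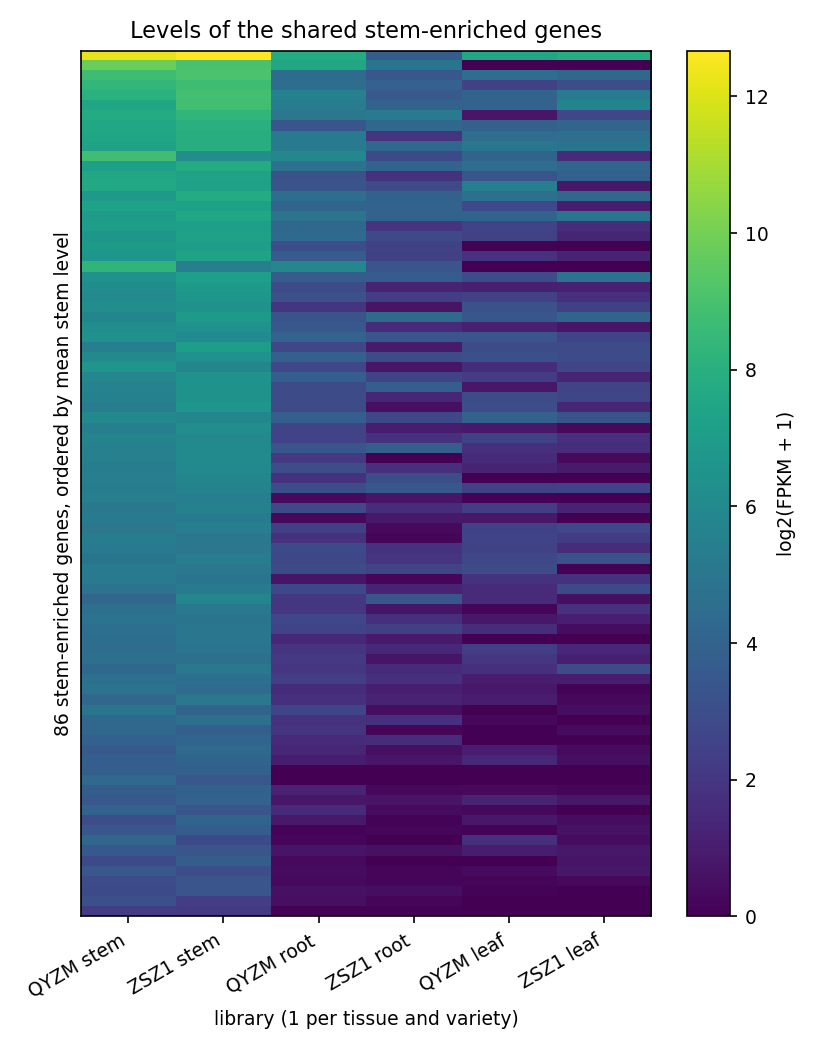
Levels of the 86 stem-enriched genes (rows, ordered by mean stem level) in the 6 libraries (columns), coloured by log2(FPKM + 1). Each column is 1 library. Within each variety the stem column is brighter than leaf and root in every row, because the genes were chosen that way. Between varieties this need not hold: Bnt11G017105 stood at 42.5 FPKM in ZSZ1 stem and 56.4 FPKM in QYZM root. By median, QYZM root, at 5.5 FPKM, is brighter than ZSZ1 root, at 2.17 FPKM.

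A single gene carried much of the summed level. Bnt02G002335 stood at 4742 FPKM in the stem of QYZM and 6513 FPKM in that of ZSZ1, at 183 and 229 FPKM in the leaves of QYZM and ZSZ1, and at 220 and 12.5 FPKM in their roots. It ranked 1 in both stem libraries. Without it, the members' share of the library total was 1.83% in QYZM stem and 2.08% in ZSZ1 stem, against 3.04% and 3.76% with it. The 5 highest members held 57.7% and 58.3% of the members' summed FPKM in the stems of QYZM and ZSZ1.

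Next by mean stem level came Bnt07G011851, at 910 FPKM in the stem of QYZM and 522 FPKM in that of ZSZ1. It was listed at 0 in both leaves and stood at 188 FPKM in the root of QYZM and 29.4 FPKM in that of ZSZ1, so that root was the only other organ with a value above 0. Bnt01G001766 stood at 419 and 544 FPKM in the stems of QYZM and ZSZ1, at 21.7 and 18.4 FPKM in leaf and at 21.2 and 9.80 FPKM in root. Bnt09G014091 stood at 340 and 432 FPKM in stem, at 4.43 and 7.02 FPKM in leaf and at 23.2 and 15.0 FPKM in root. These 4 genes shared a high stem level but not a common pattern elsewhere. In Bnt01G001766 leaf and root were near each other in QYZM, while leaf was above root in ZSZ1. In Bnt09G014091 leaf was below root in both varieties.

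At the other end were the genes whose highest value outside stem was smallest as a share of their lower stem value. Bnt11G016862 was listed at 0 in all 4 leaf and root libraries and stood at 18.8 FPKM in the stem of QYZM and 9.97 FPKM in that of ZSZ1. Bnt13G018925 was likewise listed at 0 in leaf and root, with 13.3 and 14.2 FPKM in the stems. What a listed 0 stands for is not known, and no fold is given for them. Bnt02G003804 stood at 3.74 and 3.23 FPKM in the stems of QYZM and ZSZ1 and no higher than 0.0469 FPKM elsewhere. Bnt04G007063 reached 42.2 FPKM in the stem of QYZM and 42.9 FPKM in that of ZSZ1, against 0.108 and 0.0295 FPKM in leaf and 0.304 and 0.673 FPKM in root. It was the one with the most even stem levels among these 4, and the highest.

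**Figure D2:**
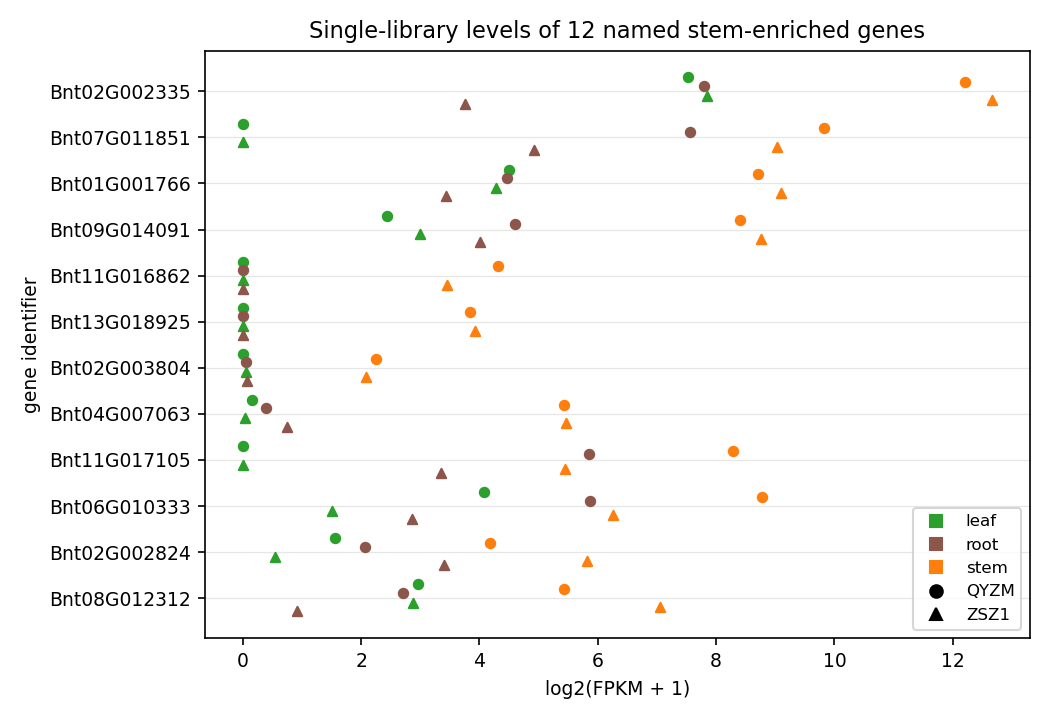
Values of 12 named stem-enriched genes in each library on the log2(FPKM + 1) axis, with circles for QYZM, triangles for ZSZ1 and colours for tissues. The first 4 genes have the highest mean stem level, the next 4 the smallest values outside stem as a share of their lower stem value, and the last 4 the largest differences between the stems. Bnt07G011851 and Bnt11G017105 are listed at 0 in both leaves, and the 2 symbols of Bnt02G002335 in root lie far apart, at 220 and 12.5 FPKM.

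Detection outside stem divided the set. At a bound of 1 FPKM, 35 of the 86 genes were detected in all 4 leaf and root libraries and 13 in none of them. The 35 had a median of 87.1 FPKM in the stem of QYZM and 113 FPKM in that of ZSZ1. The 13 had medians of 9.73 and 9.97 FPKM, and none of them exceeded 42.9 FPKM. A low stem level leaves a member little room above 1 FPKM elsewhere, since the choice asked for a 4-fold excess. Another 7 genes reached the bound in both roots and in neither leaf. Only Bnt03G005307 reached it in both leaves and in neither root. The remaining 30 were detected in other mixtures. Among them, 7 reached the bound in QYZM root alone, and no gene did so in ZSZ1 root alone.

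The members near the bound of the choice differed little from genes just outside it. The smallest of a gene's 4 stem ratios was 4.04 for Bnt02G003804, 4.12 for Bnt14G019699 and 4.15 for Bnt01G000385, the 3 members closest to the bound. Just outside stood Bnt01G001776 at 3.98, Bnt04G006677 at 3.98 and Bnt11G016256 at 3.95, and the first of these reached 831 FPKM in the stem of QYZM and 970 FPKM in that of ZSZ1. A smallest ratio of less than 5 was found in 32 members and one of at least 10 in 11. A further 91 genes that reached 1 FPKM in both stems had a smallest ratio from 3 to 4.

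The smallest ratio most often came from QYZM root. It was the limiting library for 51 members, against 16 for QYZM leaf, 10 for ZSZ1 leaf and 9 for ZSZ1 root. The members were 59.3% of the 145 genes that met the bounds in QYZM and 18.8% of the 458 that met them in ZSZ1. Of the 372 genes that met them in ZSZ1 alone, 138 fell short in QYZM against root only, 32 against leaf only, 184 against both, and 18 were below 1 FPKM in QYZM stem.

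The stems of the 2 varieties were then set side by side, since the choice fixed no relation between them. It did hold each stem to a minimum and to a 4-fold excess over leaf and root of its variety. The background genes below had only the minimum, so chosen stem values stand beside values not chosen for that excess. Of the 86 genes, 61 were higher in ZSZ1 stem and 25 in QYZM stem, and the median ZSZ1 minus QYZM difference of log2(FPKM + 1) was 0.37. Over the 13077 genes that reached 1 FPKM in both stems, 45.4% were higher in ZSZ1 and the median was -0.05. At least 2-fold higher in ZSZ1 were 6 members (6.98%), where 3.34% of the 13077 genes were. At least 2-fold lower were 3 members (3.49%), where 5.1% were. These set 1 library against 1 and have no replicate check. Across the 86 genes the stem levels of the varieties correlated at r = 0.919, close to r = 0.92 over the 13077, both on the log2(FPKM + 1) scale and as descriptions across genes.

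Bnt11G017105 differed most between the stems, at 310 FPKM in QYZM and 42.5 FPKM in ZSZ1, a 7.16-fold ratio of FPKM + 1. Its root followed, at 56.4 and 9.20 FPKM, and both leaves were listed at 0. Bnt06G010333 stood at 439 FPKM in the stem of QYZM and 75.8 FPKM in that of ZSZ1, a 5.73-fold ratio of FPKM + 1. In the other direction, Bnt02G002824 stood at 17.2 FPKM in the stem of QYZM and 55.4 FPKM in that of ZSZ1, a 3.10-fold ratio, and Bnt08G012312 at 42.0 and 132 FPKM, a 3.09-fold ratio. Their roots parted: Bnt02G002824 was higher in ZSZ1 root, at 9.55 against 3.20 FPKM, while Bnt08G012312 was lower there, at 0.889 against 5.51 FPKM.

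More of the genes stood 2-fold apart between the roots, 37, than between the stems, 9. In ZSZ1 root 70 of the 86 genes were lower than in QYZM root and 14 were higher, while 2 were listed at 0 in both. Of the 13077 genes, 58.9% were lower in ZSZ1 root. At least 2-fold lower in ZSZ1 root were 34 members, or 39.5%, where 11.7% of the 13077 genes were. At least 2-fold higher were 3 members, or 3.49%, where 5.31% were. The median difference of log2(FPKM + 1) was -0.74 for the members and -0.13 for the 13077. Through the choice itself the members' root values are bounded by their stem values, which those of the background genes are not. The closer correlation of root and stem in QYZM, given above, came from the same libraries, and its part in this difference was not tested.

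As a share of the stem value, root stood at a median of 13.2% in QYZM (lowest 0, highest 23.8%) and of 3.79% in ZSZ1 (lowest 0, highest 21.7%). The share was higher in QYZM for 73 of the 86 genes. The choice itself bounded this share, and the count was not made over other genes. It is thus not shown to be particular to the members. Bnt02G002335, the highest stem gene, showed the largest gap between roots: its 220 FPKM in QYZM and 12.5 FPKM in ZSZ1 are a 16.4-fold ratio of FPKM + 1. Bnt03G004658 followed with 34.7 and 2.84 FPKM in root, a 9.28-fold ratio, at stem levels of 182 and 235 FPKM and leaf levels of 21.8 and 23.4 FPKM. Its leaves and stems thus differed little where its roots differed widely. Largest in the other direction were Bnt02G002824, named above, and Bnt12G017210, at 2.50 FPKM in the root of QYZM and 6.92 FPKM in that of ZSZ1. Bnt12G017210 was listed at 0 in both leaves.

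Root was lower and stem higher in ZSZ1 in 48 of the 86 genes. Both organs were lower in ZSZ1 in 22 genes and both higher in 12, and in 2 the root was higher and the stem lower. Taken singly, 70 members were lower in ZSZ1 root and 61 higher in ZSZ1 stem. The joint count therefore does not show that the 2 directions were linked, and it was made for the members alone.

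**Figure D3:**
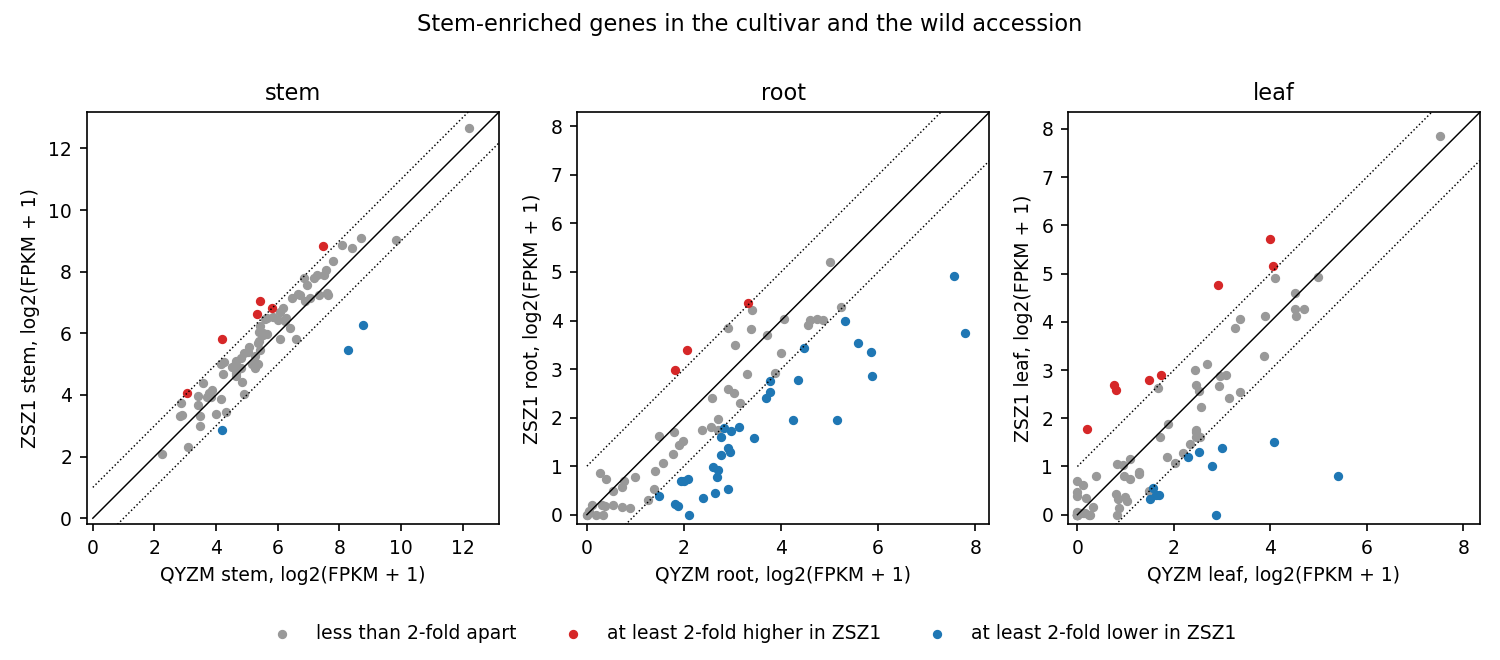
Each of the 86 stem-enriched genes in stem, root and leaf, with its QYZM level on the horizontal and its ZSZ1 level on the vertical axis, both as log2(FPKM + 1). The solid line marks equal levels and the dotted lines 2-fold differences. In stem 6 genes lie above and 3 below the dotted lines, in root 3 lie above and 34 below, and in leaf 8 lie above and 11 below.

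In leaf the comparison depended on the scale. As deposited, 49 members were lower and 30 higher in ZSZ1 leaf, with a median difference of -0.11, while over the 13077 genes the median was -0.42 and 82.1% were lower. At least 2-fold lower in ZSZ1 leaf were 11 members (12.8%), where 13.8% of the 13077 genes were. At least 2-fold higher were 8 members (9.3%), where 1.35% were. As in root, the choice bounded the members' leaf values by their stem values, but not those of the background genes. Median-of-ratios scaling, which brings the bulk of genes to the same level in each library, moved the median of the 13077 genes to 0.05 and gave 8 members lower and 14 higher. The 2-fold background was then 5.09% lower and 4% higher. Bnt03G004956 had the widest gap, at 41.4 FPKM in the leaf of QYZM and 0.748 FPKM in that of ZSZ1.

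Over the 3 tissues together, 1 of the 86 genes (1.16%) was called different between the varieties. The test was a limma linear model of log2(FPKM + 1) with tissue and variety terms, fitted to the 14941 genes that reached 1 FPKM in 2 or more libraries. All 86 genes entered it through their stem values. Genes counted as called when their p, adjusted over all tested genes by the Benjamini-Hochberg method, was below 0.05 and they differed at least 2-fold. The error term is what the additive model leaves unexplained in the single libraries, with 2 residual degrees of freedom. Bnt06G010333 was lower in ZSZ1 in every tissue, at 1.84 against 15.97 FPKM in leaf, 6.29 against 57.6 FPKM in root and 75.8 against 439 FPKM in stem (log2 difference -2.70 ± 0.22, SE; limma adjusted p = 0.0175). The background was 0.596% of tested genes called lower in ZSZ1, so a single member is near that share. A member that was not called is not shown to be equal in the varieties.

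No member was called higher in ZSZ1, where 0.0669% of the tested genes were. At an unadjusted p below 0.05, limma had 2 members higher (2.33%) and 6 lower (6.98%), where 2.31% and 13.1% of all tested genes were. The largest positive differences were those of Bnt08G013364 (1.19 ± 0.27, SE; limma adjusted p = 0.155) and Bnt08G013260 (0.92 ± 0.21, SE; limma adjusted p = 0.153). Bnt08G013260 stood higher in ZSZ1 in all 3 tissues, at 15.7 against 9.33 FPKM in leaf, 19.6 against 8.93 FPKM in root and 113 against 55.5 FPKM in stem, but neither gene passed the test. The call of Bnt06G010333 was lost under 6 of 19 alternatives, among them leaving out QYZM leaf or ZSZ1 leaf, with a difference of -2.92 to -2.18 over the 19 (limma adjusted p = 0.00742 to 1.0). Plants, handling and anything else common to a variety's libraries cannot be told apart from variety here.

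The choice of members did not compare leaf with root directly. It did bound both by the stem value in each variety, which was not so for the other tested genes. The shares below therefore set chosen values beside unchosen ones. The same fit called 16 of the 86 genes lower in leaf than in root, or 18.6%, where 24.1% of all tested genes were called. It called 3 higher in leaf, or 3.49%, where 11.1% of all tested genes were. In 13 members all leaf and root values were below 1 FPKM, so that a 2-fold difference of FPKM + 1 could not arise. Of the other 73, 21.9% were called lower and 4.11% higher in leaf, where 24.3% and 11.2% of the 14791 tested genes that reached 1 FPKM in a leaf or root library were. At an unadjusted p below 0.05 there were 25 members lower (29.1%) and 3 higher (3.49%), where 37.5% and 14.0% of all tested genes were. The median leaf minus root difference of log2(FPKM + 1) was -0.21 for the members and -0.57 for all tested genes. Under median-of-ratios scaling these medians were 0.01 and -0.05, and 9 members were called lower (10.5%) and 3 higher (3.49%), where 8.89% and 15.4% of all tested genes were. The members' share called lower thus fell on either side of that of all tested genes, depending on the scaling. Neither gap was tested, and nothing about the members is read from them.

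Bnt07G011851, listed at 0 in both leaves and at 188 and 29.4 FPKM in the roots of QYZM and ZSZ1, had the largest difference (-6.25 ± 0.62, SE; limma adjusted p = 0.00243). Bnt11G017105 followed, also listed at 0 in both leaves, with roots at 56.4 and 9.20 FPKM (-4.60 ± 0.70, SE; limma adjusted p = 0.00809). Where leaf is listed at 0 these differences depend on the added 1. In both genes the leaf values lay below the root values of either variety, although the roots differed several-fold between varieties.

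The 3 genes called higher in leaf had no leaf value above 7.86 FPKM. Bnt03G004412 stood at 7.86 and 4.36 FPKM in the leaves of QYZM and ZSZ1 and at 2.85 and 0.607 FPKM in their roots (1.47 ± 0.41, SE; limma adjusted p = 0.0392). Bnt03G005307 stood at 2.67 and 2.66 FPKM in leaf and at 0.654 and 0.119 FPKM in the roots (1.43 ± 0.31, SE; limma adjusted p = 0.0206). Bnt04G006517, named after its values were seen, stood at 4.94 and 3.71 FPKM in leaf and at 2.50 and 0.161 FPKM in the roots (1.39 ± 0.41, SE; limma adjusted p = 0.0446). In each of the 3 genes the leaf values lay above both root values.

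These calls rested on single libraries. Without QYZM root, limma called 11 members lower and 11 higher in leaf (12.8% each), where 21.6% of all tested genes were lower and 10.9% higher. Without ZSZ1 root it called 23 members lower (26.7%) and 0 higher, where 13.1% and 9.24% of all tested genes were. With QYZM leaf or ZSZ1 leaf left out it called no gene of the 14941, members included, and 20 and 17 members then had an unadjusted p below 0.05 (23.3% and 19.8%, against 42.8% and 32.0% of all tested genes). The difference of Bnt07G011851 was then -5.39 and -7.11 (limma adjusted p = 0.0597 and 0.0523).

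**Figure D4:**
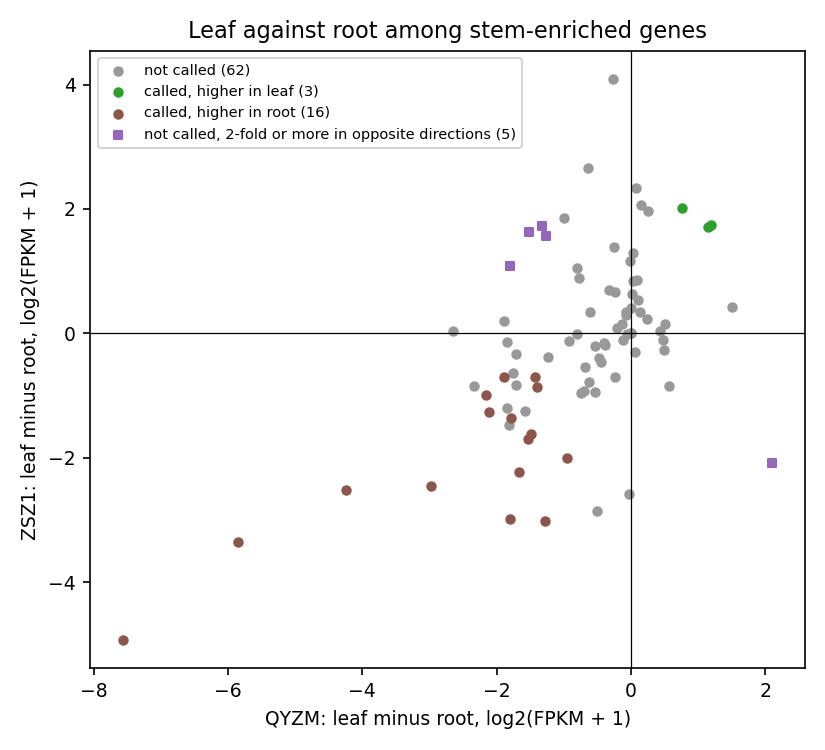
Leaf minus root differences of log2(FPKM + 1) for the 86 stem-enriched genes, in QYZM on the horizontal and in ZSZ1 on the vertical axis. Colours mark the 16 genes called lower and the 3 called higher in leaf by the limma fit, and squares the 5 genes at least 2-fold apart in opposite directions. The called genes lie on the same side of 0 in both varieties.

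Gene by gene, root was above leaf in both varieties for 42 members and leaf above root in both for 17. In 20 members root was above leaf in QYZM and leaf above root in ZSZ1, and in 5 the reverse, while 2 were listed at 0 throughout leaf and root. At least 2-fold in both varieties were 14 members higher in root and 2 higher in leaf. These counts were made for the members alone, so whether they differ from those of other genes is not shown. The median difference was -0.54 in QYZM and -0.12 in ZSZ1 for the members, against -0.40 and -0.76 over the 13077 genes that reached 1 FPKM in both stems.

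In 5 members (5.81%), leaf and root were at least 2-fold apart in opposite directions, where 0.581% of the 13077 genes were. The choice bounded leaf and root of the members by their stem values, but not those of the 13077 genes. The gap between these shares was not tested. The 5 are named here after their values were seen. Bnt03G004956 stood at 41.4 FPKM in leaf and 8.84 FPKM in root of QYZM, and at 0.748 and 6.44 FPKM in ZSZ1, with stems at 198 and 152 FPKM. The other 4 ran from root in QYZM to leaf in ZSZ1. Bnt01G000884 went from 14.9 FPKM in leaf and 38.6 FPKM in root of QYZM to 51.7 and 14.9 FPKM in ZSZ1. Bnt11G017059 went from 15.6 and 46.7 FPKM to 34.8 and 10.5 FPKM in the same order. Bnt11G016599 and Bnt08G012670 did the same at lower levels, with no value above 5.92 FPKM in leaf or root.

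The members were spread over the identifiers. All 14 numbered prefixes held at least 3 of them, and 1 member had the prefix Un. They made up 0.658% of the genes that reached 1 FPKM in both stems, and by prefix from 0.446% (Un) to 1.37% (Bnt11, 10 of 729 genes). Bnt04 followed with 0.867% (9 of 1038). What the numbers in the identifiers stand for is not given in the sources used here, and no coordinates are known.

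Some members had identifiers next to each other. Bnt03G004836 stood at 73.9 and 84.0 FPKM in the stems of QYZM and ZSZ1, at 1.14 and 0.661 FPKM in leaf and at 9.81 and 1.997 FPKM in root. Bnt03G004837 stood at 130 and 139 FPKM in stem, at 4.82 and 2.08 FPKM in leaf and at 18.1 and 2.86 FPKM in root. Both had even stems, and roots several-fold higher in QYZM.

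The genes listed on either side, Bnt03G004835 and Bnt03G004838, reached no more than 3.06 FPKM in any stem. The other such pair was Bnt11G017068, at 14.8 and 9.44 FPKM in the stems of QYZM and ZSZ1, and Bnt11G017069, at 28.9 and 15.4 FPKM. In root the first stood at 1.80 and 0.308 FPKM and the second at 5.25 and 0.363 FPKM, so that stem and root were both lower in ZSZ1. Where neighbouring genes are near-identical copies, reads could have been split between them in the authors' counting, which FPKM values do not show.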

How the data were processed

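The table that the authors deposited holds FPKM of 20693 genes in 6 libraries. Bowtie2 and RSEM are named, per the submitters' processing notes. For the genome build, annotation and strand handling nothing is given in the sources used here. Values were used as deposited. Because FPKM are not counts, differences were tested on log2(FPKM + 1) with limma 3.58.1 in R 4.3.3 (terms for tissue and variety, variance moderation with a trend on the mean), and p-values were adjusted over all 14941 genes tested. The fit was run on data simulated from its own additive model with independent errors. That checks the code, not whether the model holds for these libraries. Counts by size compare 1 library with 1 and carry no test. Other values and figures came from Python 3.11.15 with pandas 2.3.3 and matplotlib 3.10.9. Genes were named by a fixed rule: the largest called differences, the highest and the most stem-limited members, those at the bound, adjacent identifiers, and the largest differences between stems and between roots. The planned marker lists needed gene names and were not used. The members, lists and rule were chosen with earlier results of these data known. Alternatives were pseudocounts, filters, scalings, moderation, fold thresholds, blocking terms and leaving out each library.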

Additional observations from a re-analysis of the deposited data

Results flagged for a closer look

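In 5 stem-enriched genes the leaf minus root difference of log2(FPKM + 1) was at least 2-fold in opposite directions in the varieties. Subtracting the QYZM value from the ZSZ1 value gave -4.20 for Bnt03G004956 (2.11 in QYZM and -2.09 in ZSZ1), 3.16 for Bnt11G017059 (-1.52 and 1.64), 3.05 for Bnt01G000884 (-1.32 and 1.73), 2.88 for Bnt08G012670 (-1.80 and 1.08) and 2.82 for Bnt11G016599 (-1.26 and 1.56). These differences were not tested, since each value is 1 library minus 1.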

How the results depend on the processing

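The leaf comparison between varieties, and the alternatives for it and for the opposite differences, were chosen after the data were seen. The number of members was 161 at a pseudocount of 0.1, 39 at 5, 177 at 3-fold, 19 at 8-fold, 145 by QYZM alone and 458 by ZSZ1 alone. Other scalings gave 66 to 122 members, of which 66 to 84 were among the 86. For leaf against root the 19 calls became 8 at a pseudocount of 5, 12 under median-of-ratios scaling, 6 at 4-fold, 11 without the variety term and 0 to 23 with 1 library left out. Such fits assume that the lone library left for a tissue varies as the rest do. For ZSZ1 against QYZM the 1 call became 0 at a pseudocount of 5, with no filter, under quantile normalization and without the tissue term, and 0 to 1 with 1 library left out. Between roots the 37 genes at least 2-fold apart became 11 at a pseudocount of 5, all lower in ZSZ1. Between leaves the 19 became 38 at a pseudocount of 0.1, 5 at 5 and 29 with equal totals (16 higher, 13 lower). The 5 opposite differences became 8 and 2 at these pseudocounts and 3 under median-of-ratios scaling. The cause was not tested. The count between stems stayed within 6 to 11. Over the 19 alternatives of the fit, no sign changed for Bnt06G010333 between varieties or, for leaf against root, for Bnt07G011851, Bnt11G017105, Bnt03G004412, Bnt03G005307 and Bnt04G006517; other called genes were not followed. Without read counts, how firmly low values are known is not clear.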
